A study of Mus musculus with 6 samples.

Results

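The 56 genes described here are nuclear genes for subunits of respiratory complexes I to IV, together with the electron carrier cytochrome c. They were taken by gene symbol from the 55487 gene identifiers listed for every library, a rule that uses no expression value, though earlier results of these data were known when the set was chosen. Complex I supplied 32 members, complex II 4, complex III 9 and complex IV 10, and Cycs stood for cytochrome c. All 56 passed the filter on low values, a mean TPM (transcript abundance scaled to the same total in every library) of 0.5 or more over the 6 libraries, as did 13829 genes in all.

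The cells were J774, a mouse macrophage line, and each culture received either control siRNA or NCOA4 siRNA by liposome-mediated transfection. NCOA4 is the cargo receptor that brings the iron-storage protein ferritin to the lysosome, where its iron is released. The control group (genotype label control) and the knockdown group (genotype label NCOA4 knockdown) each held 3 biological replicates, and poly(A)-selected RNA was sequenced. The comparison asks whether transcripts of the iron-dependent respiratory chain differ when that route of iron release is reduced. All libraries came from a single cell line, both groups carried an siRNA, and the knockdown was partial. RNA was measured in bulk, so a smaller share of cells with a transcript and less of that transcript per cell cannot be told apart.

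The respiratory chain sits in the inner mitochondrial membrane and moves electrons from NADH and succinate to oxygen. Complex I (NADH dehydrogenase) and complex II (succinate dehydrogenase) feed electrons to coenzyme Q, complex III passes them to cytochrome c, and complex IV (cytochrome c oxidase) hands them to oxygen. Iron is built into this path as iron-sulfur clusters and heme, while the core subunits that hold the hemes of complex IV are encoded by the mitochondrial genome and are not members.

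Ncoa4 (ENSMUSG00000056234, chr14:32159865-32179855, plus strand, GRCm38) was present at 19.7, 22.5 and 22.4 TPM with control siRNA and at 9.63, 8.60 and 8.88 TPM with NCOA4 siRNA, which left 41.9% of the control mean (log2 fold change -1.21, SE 0.0767, limma adjusted p = 0.00127). All 10 macrophage markers examined were expressed, with means from 28.0 TPM for Mertk to 4885 TPM for Lyz2 in control cells. At a limma adjusted p under 0.05, 4 of these 10 markers rose and 1 fell, where 3.11% of all genes rose and 2.31% fell. All NCOA4 siRNA values lay above all controls for 7 markers and below them for 2, against 16.6% and 11.8% of all genes. The median log2 fold change of the markers was 0.20, beside 0.03 for all genes. The part of these markers in the results was not tested. None of 8 markers of other cell types passed the filter. Reads rebuilt from TPM numbered 15572728 to 18365749 per library. Control replicate 1 stood apart from the other control libraries: the mean chi-square per gene, which counting noise alone would put near 1, was 12 and 11.9 against replicates 2 and 3, compared with 3.61 between replicates 2 and 3 and 1.97 to 2.42 among the NCOA4 siRNA libraries. Without this library the log2 fold changes of 40 of the 56 members changed sign or moved by over 1.5 times, 18 of them in sign. This count was made for control replicate 1 only, and such moves were not particular to it. Without control replicate 3, for example, Ndufa2 moved from 0.12 to 0.26 and Uqcr10 from 0.27 to 0.41. Many values lay near 0, where a small shift passes this rule.

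Respiratory subunit transcripts differed little between the groups. No member rose and 1 fell with NCOA4 siRNA, Cox7b, a small nuclear subunit of complex IV. The median log2 fold change of the 56 members was 0.04 on the log2(TPM + 0.5) scale, beside 0.03 for all 13829 genes. Values ran from -0.62 for Ndufa12 to 0.33 for Ndufb2, and 35 of the 56 lay within 0.1 of 0.

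At a threshold of 0.05 on the limma p, adjusted over all genes tested by the Benjamini-Hochberg method, the count of members higher was 0, where 3.11% of all genes were higher, and the single lower member made 1.79% of the set, where 2.31% of all genes were lower. None of the 56 also passed a fold change of 1.5, which 1.18% of all genes did. An unadjusted limma p under 0.05 was reached by 8 of the 56 members and by 2982 of all 13829 genes, a smaller share of the members than of all genes. Log2 fold changes were above 0 for 38 members (67.9%, against 57.4% of all genes). Without control replicate 1, 24 members were above 0 and the median was -0.01, so the sign of the median turned without that library.

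The intervals set limits on what could have been missed. For 53 of the 56 members the 95% confidence interval of the fold change lay wholly inside a 1.5-fold change in either direction, and for 43 it lay inside 1.25-fold. The members outside the 1.5-fold limit were Ndufa12, Ndufb2 and Uqcr10. The median SE was 0.0696 on the log2 scale for the members and 0.0841 for all genes, and the median member was covered by 1742 reads per library. Complete separation of the groups, with all 3 NCOA4 siRNA values on one side of all 3 control values, was seen upward in 6 members (10.7%, against 16.6% of all genes) and downward in 5 (8.93%, against 11.8%). The 6 were Ndufs1, Ndufs3, Ndufv2, Ndufa11, Ndufb2 and Ndufb5, and the 5 were Cox7b, Ndufb10, Ndufb3, Ndufa6 and Ndufa10. Both shares were below those of all genes, but the order of the upward shares depended on single libraries. Upward separation was seen in 18 members (32.1%, against 22.7% of all genes) without control replicate 3 and in 12 (21.4%, against 20.2%) without NCOA4 siRNA replicate 1, and in 6 to 9 members, below the share of all genes, without any 1 of the other libraries. Downward, the share of members stayed below that of all genes with each library left out, at 8.93% to 16.1%.

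**Figure D1:**
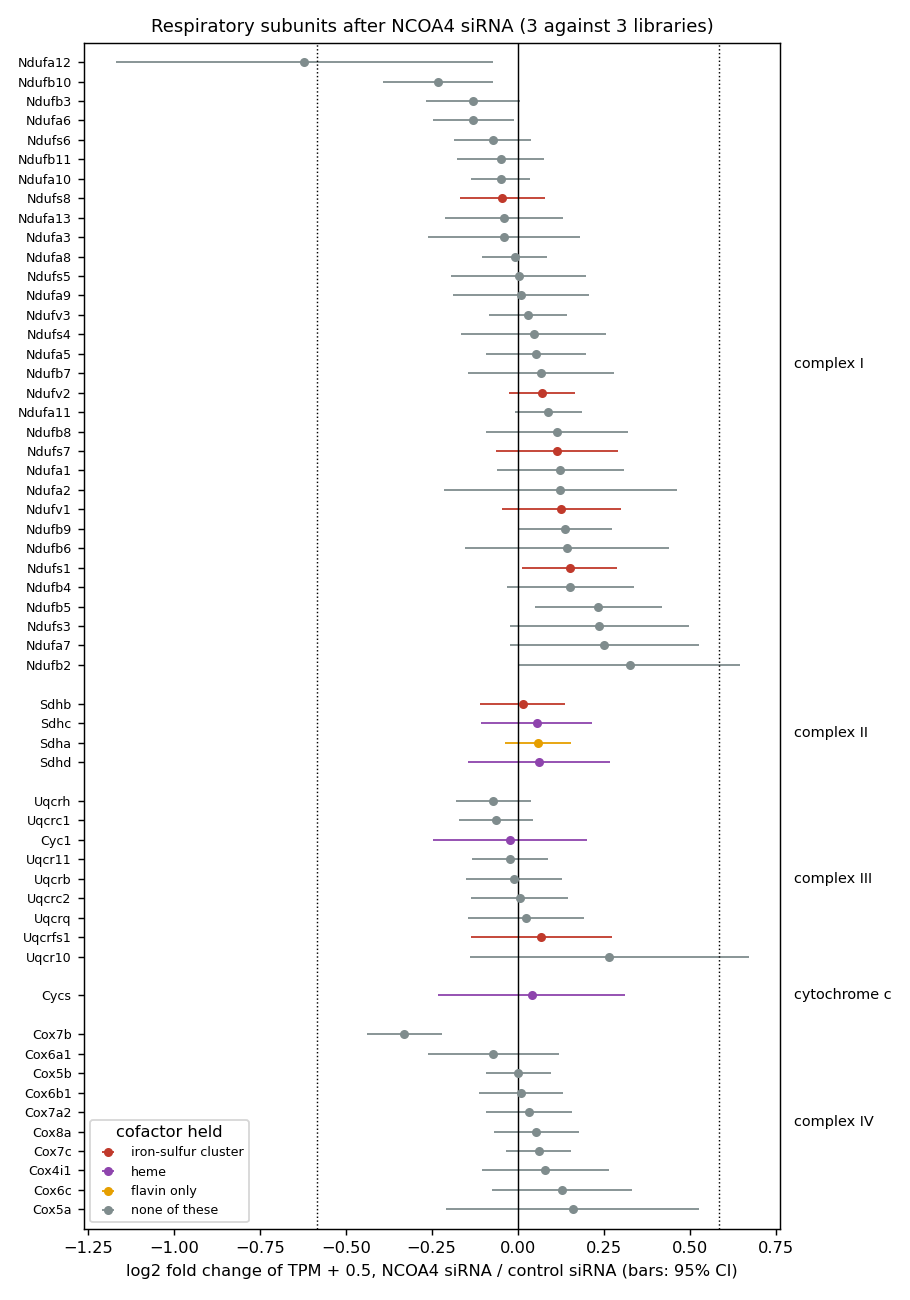
Log2 fold change of TPM + 0.5 (horizontal axis, NCOA4 siRNA over control siRNA, n = 3 each) for the 56 members, grouped by complex and coloured by cofactor, with bars for the 95% confidence interval and dotted lines at a 1.5-fold change. Most points lie within 0.1 of 0, Cox7b is the only one with an adjusted p under 0.05, and Ndufa12 has the lowest value and a wide interval.

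Promoter sequence was examined for features that the members share. A RefSeq promoter (GRCm38.p6, 250 bases before to 50 bases after the gene start) was matched for 46 of the 56 members. The letters GCGCANGCGC, bound by nuclear respiratory factor 1 (NRF1), occurred on either strand in 11 of the 46 (23.9%), against 5.19% of the 27025 genes with a promoter and 12.3% of the 9093 of them tested here. CCGGAAG, the core bound by ETS factors such as GABPA, occurred in 11 (23.9%, against 9.93% and 21.7%), and AAGATGG, the core bound by YY1, in 7 (15.2%, against 7.28% and 8.99%). The following promoters are shown because they carry each of the motifs in subunits of complexes I and II, and because Cox7b was the member that fell; capitals mark the motif matches, and each sequence is read 5′ to 3′ along the gene.
Sdha: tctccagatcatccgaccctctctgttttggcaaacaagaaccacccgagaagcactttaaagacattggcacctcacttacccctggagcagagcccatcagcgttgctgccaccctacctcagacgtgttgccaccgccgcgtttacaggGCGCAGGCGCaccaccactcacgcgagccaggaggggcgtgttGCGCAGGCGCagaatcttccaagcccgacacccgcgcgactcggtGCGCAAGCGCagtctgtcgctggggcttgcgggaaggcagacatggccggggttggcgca
Sdhd: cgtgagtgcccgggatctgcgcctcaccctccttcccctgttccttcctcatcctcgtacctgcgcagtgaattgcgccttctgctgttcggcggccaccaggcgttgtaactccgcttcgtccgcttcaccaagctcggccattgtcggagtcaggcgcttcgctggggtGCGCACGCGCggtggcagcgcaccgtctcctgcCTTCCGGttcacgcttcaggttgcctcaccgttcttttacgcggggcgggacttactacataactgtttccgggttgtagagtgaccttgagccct
Ndufs7: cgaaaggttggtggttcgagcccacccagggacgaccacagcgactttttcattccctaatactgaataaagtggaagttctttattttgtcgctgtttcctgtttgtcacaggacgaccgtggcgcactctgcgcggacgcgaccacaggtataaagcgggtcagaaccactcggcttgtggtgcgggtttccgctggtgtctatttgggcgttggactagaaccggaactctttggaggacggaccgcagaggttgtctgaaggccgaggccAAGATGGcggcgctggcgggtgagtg
Cox7b: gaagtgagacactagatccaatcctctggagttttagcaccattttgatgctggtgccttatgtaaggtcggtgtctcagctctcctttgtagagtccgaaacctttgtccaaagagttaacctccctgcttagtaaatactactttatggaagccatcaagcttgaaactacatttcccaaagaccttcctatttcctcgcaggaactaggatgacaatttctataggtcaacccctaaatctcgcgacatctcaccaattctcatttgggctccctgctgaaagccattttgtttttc
The Sdha promoter (chr13:74350191-74350490, minus strand) held 3 NRF1 matches, and that of Sdhd (chr9:50603800-50604099, minus strand) held 1 NRF1 match and 1 GABPA match, the latter on the opposite strand. The Ndufs7 promoter (chr10:80249199-80249498, plus strand) held 1 YY1 match. No match was found in this window for Cox7b (chrX:106015450-106015749, plus strand), Ndufb10 or Ndufa12. As a description, the median log2 fold change was 0.00 for the 11 with an NRF1 match and 0.04 for the 35 without, 0.01 and 0.04 for GABPA, and 0.05 and 0.03 for YY1. A match is a description of letters and was not tested as a binding site.

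In complex I, the entry point for electrons from NADH, 0 of 32 subunits passed the test in either direction. The median log2 fold change was 0.06, with 21 values above 0 and 11 below, and without control replicate 1 it was 0.01, with 17 above and 15 below. The matrix arm, which binds NADH and carries the iron-sulfur clusters, and the membrane arm, which pumps protons, had medians of 0.05 (15 subunits) and 0.07 (17 subunits), which became -0.01 and 0.01 without that library. The 6 core subunits of the matrix arm had a median of 0.12, and of 0.06 without it. Summed over the complex, TPM was 4417, 4593 and 4864 with control siRNA and 4588, 4666 and 4718 with NCOA4 siRNA, and the NCOA4 siRNA sums lay inside the range of the controls.

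Among the core subunits, Ndufs1 (ENSMUSG00000025968, chr1:63143596-63176833, minus strand), the largest subunit of the complex and a carrier of several iron-sulfur clusters, was at 71.2, 82.5 and 78.8 TPM in controls and at 85.4, 86.8 and 85.6 TPM after NCOA4 siRNA. The groups did not overlap, but the difference did not pass the test (log2 fold change 0.15, SE 0.0584, adjusted p = 0.197; 0.09 without control replicate 1). Ndufv1, which holds the flavin and the cluster that receive electrons from NADH, was at 108, 126 and 126 TPM in controls and at 129, 125 and 139 TPM after NCOA4 siRNA. Only control replicate 1 was clearly below the other libraries, and the log2 fold change was 0.13 (95% interval -0.05 to 0.30), and 0.05 without it. Ndufv2, its partner with a binuclear cluster, was at 177, 177 and 176 TPM in controls and at 192, 188 and 177 TPM after NCOA4 siRNA. Its controls were nearly identical and the third NCOA4 siRNA library was just above them, giving a log2 fold change of 0.07 (interval -0.03 to 0.17).

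Ndufs7, which holds the last cluster before coenzyme Q, was at 79.8, 85.6 and 96.5 TPM in controls and at 90.8, 92.9 and 99.2 TPM after NCOA4 siRNA, a log2 fold change of 0.11 (interval -0.06 to 0.29) with overlapping groups, and of 0.05 without control replicate 1. Ndufs8, a carrier of paired clusters in the same arm, was at 309, 315 and 349 TPM in controls and at 314, 312 and 315 TPM after NCOA4 siRNA. All its NCOA4 siRNA values lay between the lowest and the highest control, and the log2 fold change was -0.04 (interval -0.17 to 0.08), and -0.08 without control replicate 1. Ndufs3, a core subunit without a cluster, had a log2 fold change of 0.24 (adjusted p = 0.27). The groups of Ndufs3 did not overlap, and its lowest value, 56.8 TPM, was in control replicate 1, without which the log2 fold change was 0.11.

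The highest fold change of the complex belonged to Ndufb2, a small accessory subunit of the membrane arm, at 2.23, 2.73 and 2.15 TPM in controls and 3.03, 2.87 and 3.36 TPM after NCOA4 siRNA. The groups did not overlap, and the log2 fold change of 0.33 (SE 0.135) had an adjusted p of 0.226 from limma. This was the lowest level of all members, with as few as 63 reads in a library. It is given per 5628 bases of joined exons, although the transcript with the longest coding sequence (the shortest where several tie) spans 455 bases. Ndufb10, another membrane-arm accessory subunit (chr17:24722060-24724478, minus strand), was at 181, 154 and 167 TPM in controls and at 136, 141 and 150.1 TPM after NCOA4 siRNA. Every NCOA4 siRNA value was below every control, with a log2 fold change of -0.23 (SE 0.0673, adjusted p = 0.109). Limma-voom on rebuilt reads gave it an adjusted p of 0.0357 with TMM factors (library scaling by a trimmed mean of log ratios) and 0.0568 with library totals. The remaining members that separated downward, Ndufb3, Ndufa6 and Ndufa10, had log2 fold changes of -0.13, -0.13 and -0.05.

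Ndufa12, an accessory subunit of the matrix arm (ENSMUSG00000020022, chr10:94198720-94221443, plus strand), had the lowest fold change of all members. It was at 97.6, 99.2 and 90.3 TPM in controls and at 47.1, 93.1 and 54.4 TPM after NCOA4 siRNA. Replicate 2 of NCOA4 siRNA lay within the control range and the other NCOA4 siRNA libraries far below it, so the log2 fold change of -0.62 carried an SE of 0.231 and an adjusted p of 0.185 from limma. Limma-voom on rebuilt reads gave an adjusted p of 0.0167 with TMM factors and 0.0225 with library totals, and without NCOA4 siRNA replicate 2 the limma value was -0.91 with an adjusted p of 0.0221.

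A processed pseudogene shares most of the Ndufa12 coding sequence. Gm15920 (chr5:130188395-130188796, plus strand) is 99.5% identical to 89.3% of the Ndufa12 coding sequence, and it held 52.8% of the reads counted on the pair. In controls, Ndufa12 had 879, 943 and 739 reads and Gm15920 had 1121, 616 and 584. After NCOA4 siRNA, Ndufa12 had 429, 796 and 515 reads and Gm15920 had 1037, 527 and 930. The NCOA4 siRNA libraries with few Ndufa12 reads had many reads on the copy, while control replicate 1 had many on both. Ndufa12 took 29.3% and 35.6% of the pair in NCOA4 siRNA replicates 1 and 3, against 60.2% in replicate 2 and 44.0%, 60.5% and 55.9% in controls. The pair together made 117, 84.9 and 85.0 CPM (reads scaled to the library total) in controls and 84.2, 82.0 and 80.5 after NCOA4 siRNA, and control replicate 1 alone was far from the rest. An exact two-sided permutation test of this sum gave p = 0.1, the smallest that 3 against 3 libraries allow. With the TPM of the copy added, the log2 fold change of Ndufa12 was -0.03. That sum gives the copy more weight per read, since TPM divides by 402 bases for Gm15920 and by 1569 for Ndufa12. In CPM the mean of the pair was 95.65 in controls and 82.22 after NCOA4 siRNA, with every NCOA4 siRNA library below every control. How reads were divided between the gene and its copy was not tested.

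**Figure D2:**
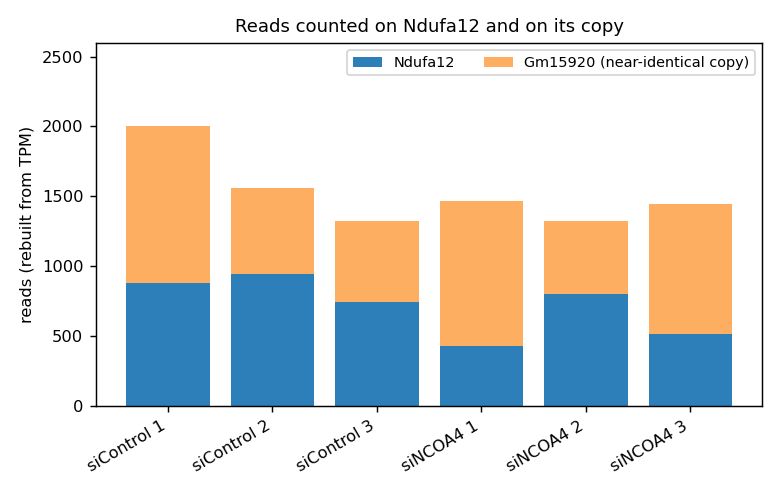
Reads rebuilt from TPM (vertical axis) on Ndufa12 and on the near-identical pseudogene Gm15920, stacked, in each of the 6 libraries. Ndufa12 has its fewest reads, 429 and 515, in NCOA4 siRNA replicates 1 and 3, where the copy has 1037 and 930.

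Complex II oxidises succinate in the citric acid cycle and is the one complex made wholly by nuclear genes. None of its 4 subunits passed the test, and the fold changes were close together, with log2 values from 0.01 to 0.06. Sdha, the flavin subunit that binds succinate, was at 253, 272 and 267 TPM in controls and at 279, 271 and 277 TPM after NCOA4 siRNA (interval of the log2 fold change -0.04 to 0.16). Sdhb, which carries the iron-sulfur clusters, was at 139, 150.2 and 157 TPM in controls and at 148, 149 and 153 TPM after NCOA4 siRNA (interval -0.11 to 0.14). The groups of both genes overlapped.

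The heme-binding membrane anchors are Sdhc and Sdhd. Sdhc was at 114, 134 and 135 TPM in controls and at 129.9, 135 and 133 TPM after NCOA4 siRNA, and Sdhd was at 359, 446 and 446 TPM in controls and at 424, 431 and 443 TPM. Control replicate 1 was the lowest library for each, and the other libraries lay close together. Without it, the log2 fold changes of Sdhb, Sdhc and Sdhd were -0.03, -0.02 and -0.04, in place of 0.01, 0.06 and 0.06, that of Sdha was 0.03 in place of 0.06, and the median of the complex was -0.03 in place of 0.06. Summed TPM of the complex was 864.9, 1003 and 1004 in controls and 980.1, 985.2 and 1006 after NCOA4 siRNA.

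Complex III, the cytochrome bc1 complex, had the lowest median log2 fold change, -0.01, with 4 of 9 values above 0 and none past the test. Without control replicate 1 it was -0.04. Uqcrfs1, the Rieske iron-sulfur protein, was at 145, 179 and 179.7 TPM in controls and at 168, 179.6 and 179 TPM after NCOA4 siRNA. Cyc1, cytochrome c1 with its covalently bound heme, was at 246, 297 and 324 TPM in controls and at 285, 278 and 285 TPM after NCOA4 siRNA. Control replicate 1 was again the lowest for both, the groups overlapped, and the log2 fold changes were 0.07 (interval -0.14 to 0.28) and -0.02 (interval -0.25 to 0.20), or -0.03 and -0.13 without that library.

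The extremes of complex III were Uqcr10 and Uqcrh, small subunits without a cofactor. Uqcr10 was at 192, 287 and 314 TPM in controls and at 307, 321 and 307 TPM after NCOA4 siRNA, a log2 fold change of 0.27 (SE 0.170, adjusted p = 0.417). That value rested on control replicate 1, and without it the log2 fold change was 0.05. Uqcrh, the hinge protein, was at 350.0, 369.6 and 344 TPM in controls and at 325, 338 and 350.4 TPM after NCOA4 siRNA, a log2 fold change of -0.07 with overlapping groups. Cycs, the mobile heme protein that links complexes III and IV, was at 80.4, 110.2 and 105 TPM in controls and at 96.9, 103 and 102 TPM after NCOA4 siRNA. Its log2 fold change was 0.04 (interval -0.23 to 0.31), and -0.10 without control replicate 1, the lowest library. Copies elsewhere in the genome held 7.49% of the reads counted on Cycs and its copies.

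Complex IV contained the single member that changed. Cox7b (ENSMUSG00000031231, chrX:106015700-106022450, plus strand), a small nuclear subunit of cytochrome c oxidase, was at 334, 369 and 358 TPM in controls and at 284, 281 and 279 TPM after NCOA4 siRNA. All NCOA4 siRNA values were below all controls and lay close together. The mean fell from 354 ± 18.1 to 281 ± 2.53 TPM (SD, n = 3 each), and the log2 fold change was -0.33 (SE 0.0457, 95% interval -0.44 to -0.22, limma adjusted p = 0.0127). An exact two-sided permutation test of its TPM gave p = 0.1, the smallest that this design allows. Near-identical copies held 0.0529% of the reads counted on Cox7b and its copies. The call was lost without NCOA4 siRNA replicate 1, 2 or 3 (adjusted p = 0.0733, 0.0772 and 0.0712), with the log2 fold change at -0.34, -0.33 and -0.32. It was kept without any 1 of the controls.

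The other 9 nuclear subunits of complex IV did not pass the test. Cox5a, which had the highest fold change, was at 89.9, 133 and 139 TPM in controls and at 131, 134 and 132 TPM after NCOA4 siRNA. Control replicate 1 was far below the other libraries, which overlapped, and the log2 fold change of 0.16 (SE 0.155) became -0.04 without it. The most abundant member, Cox4i1, a subunit that most tissues express as this isoform, had a log2 fold change of 0.08 (interval -0.10 to 0.26), and of -0.01 without control replicate 1. For the remaining subunits the log2 fold changes ran from -0.07 for Cox6a1 to 0.13 for Cox6c, and these were -0.0021 and 0.027 without that library. The median of the complex was 0.04, and -0.01 without it. Summed TPM of the complex was 5370, 5533 and 5862 in controls and 5590, 5604 and 5645 after NCOA4 siRNA.

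**Figure D3:**
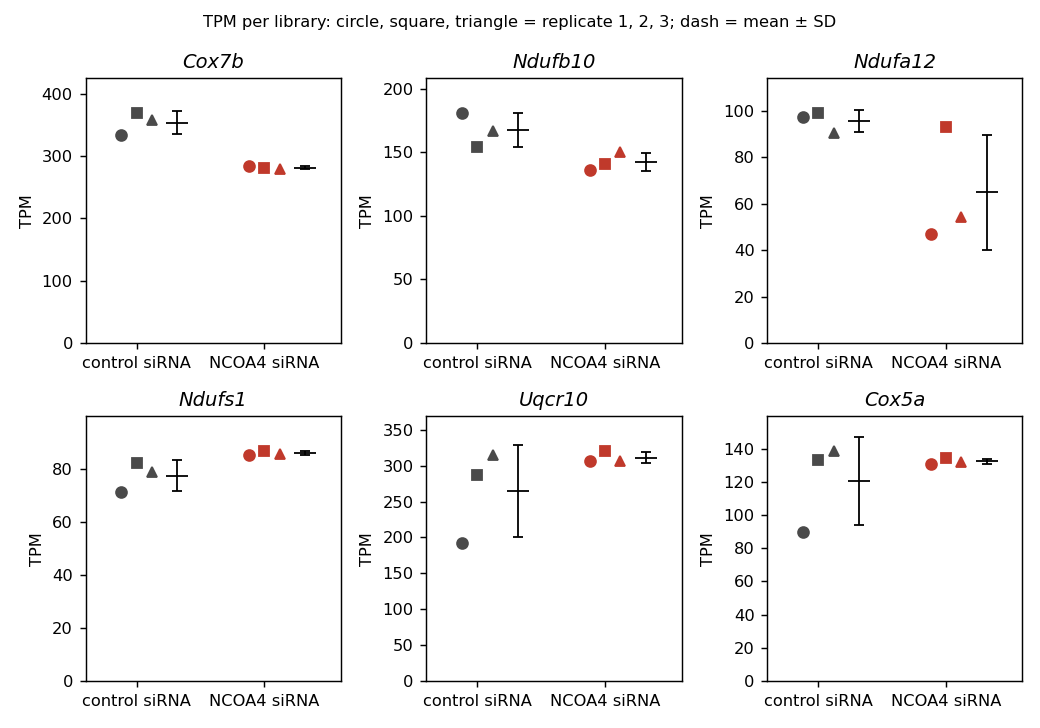
TPM (vertical axis, from 0) of 6 members in each library, with circles, squares and triangles for replicates 1, 2 and 3 and a dash with bars for the mean ± SD of 3 libraries. Cox7b and Ndufb10 separate by group, NCOA4 siRNA replicate 2 of Ndufa12 sits with the controls, and control replicate 1 is the lowest value of Ndufs1, Uqcr10 and Cox5a.

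Subunits that carry iron were compared with those that do not. None of the 11 members with an iron-sulfur cluster or heme passed the test, and their log2 fold changes ran from -0.04 for Ndufs8 to 0.15 for Ndufs1, with a median of 0.06 and 9 of 11 above 0. For the 45 members without iron the median was 0.03, with 29 above 0 and 1, Cox7b, past the test. The 7 iron-sulfur subunits had a median of 0.07 and the 4 heme subunits 0.05, which became 0.05 and -0.07 without control replicate 1. The order of the groups turned with control replicate 1: without it the median was -0.03 for the iron-bearing subunits, with 4 of 11 above 0, and -0.01 for the others. No test of the difference between these groups was made, since subunits of the same libraries are not replicates.

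**Figure D4:**
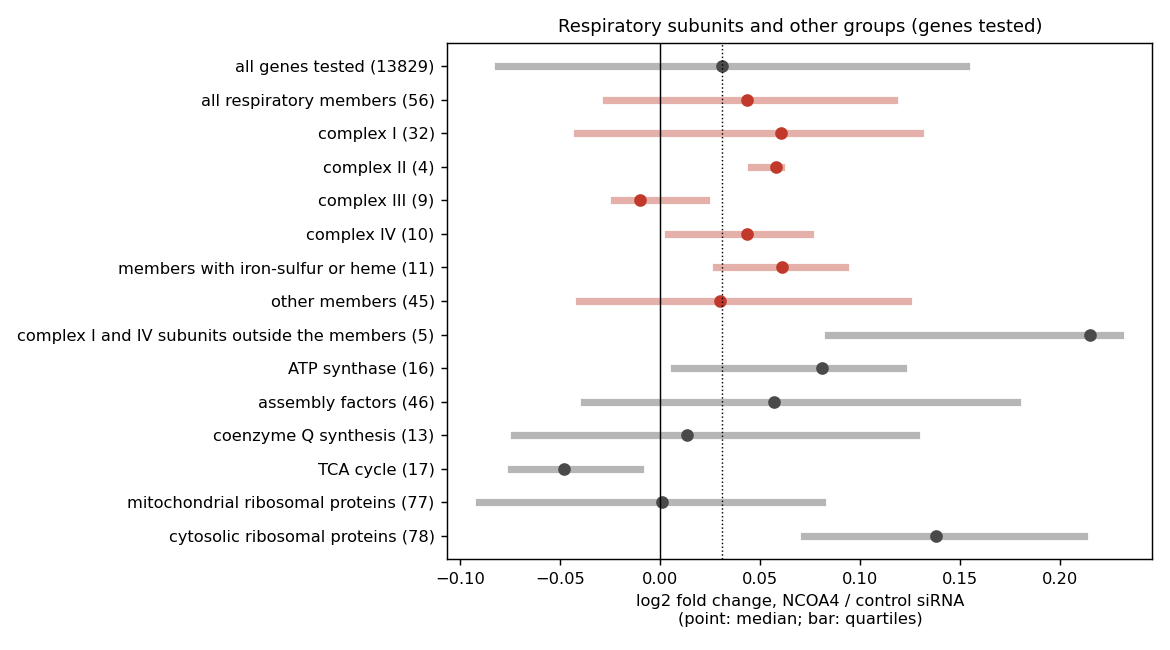
Median log2 fold change (point) and quartiles (bar) of TPM + 0.5, NCOA4 siRNA over control siRNA, for the members by complex and cofactor (red) and for other gene groups (grey), with the number of genes tested in brackets and a dotted line at the median of all genes, 0.03. The medians of the complexes lie between -0.01 and 0.06, and cytosolic ribosomal proteins stand higher at 0.14.

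Members varied more among the control libraries than among the NCOA4 siRNA libraries, as did most genes. The SD of TPM was larger in controls for 50 of 56 members (89.3%), against 65.5% of all genes tested. The median coefficient of variation was 7.94% in controls and 2.47% after NCOA4 siRNA for the members, and 8.25% and 5.29% for all genes, and without control replicate 1 the controls had 4.59% for the members and 5.69% for all genes. Control replicate 1 was the lowest of the 6 libraries for 34 members (60.7%, against 34.5% of all genes) and the highest for 5. Relative to the other controls, its median log2 deviation was -0.15 over the members and -0.05 over all genes. Together the members took 1.305%, 1.375% and 1.441% of all TPM in the controls and 1.371%, 1.384% and 1.396% after NCOA4 siRNA, so that every NCOA4 siRNA library lay between the lowest and the highest control. Across members, the deviation of that library had a Spearman correlation of 0.150 with GC content and -0.223 with log exon length, given as a description over 56 genes of the same libraries.

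**Figure D5:**
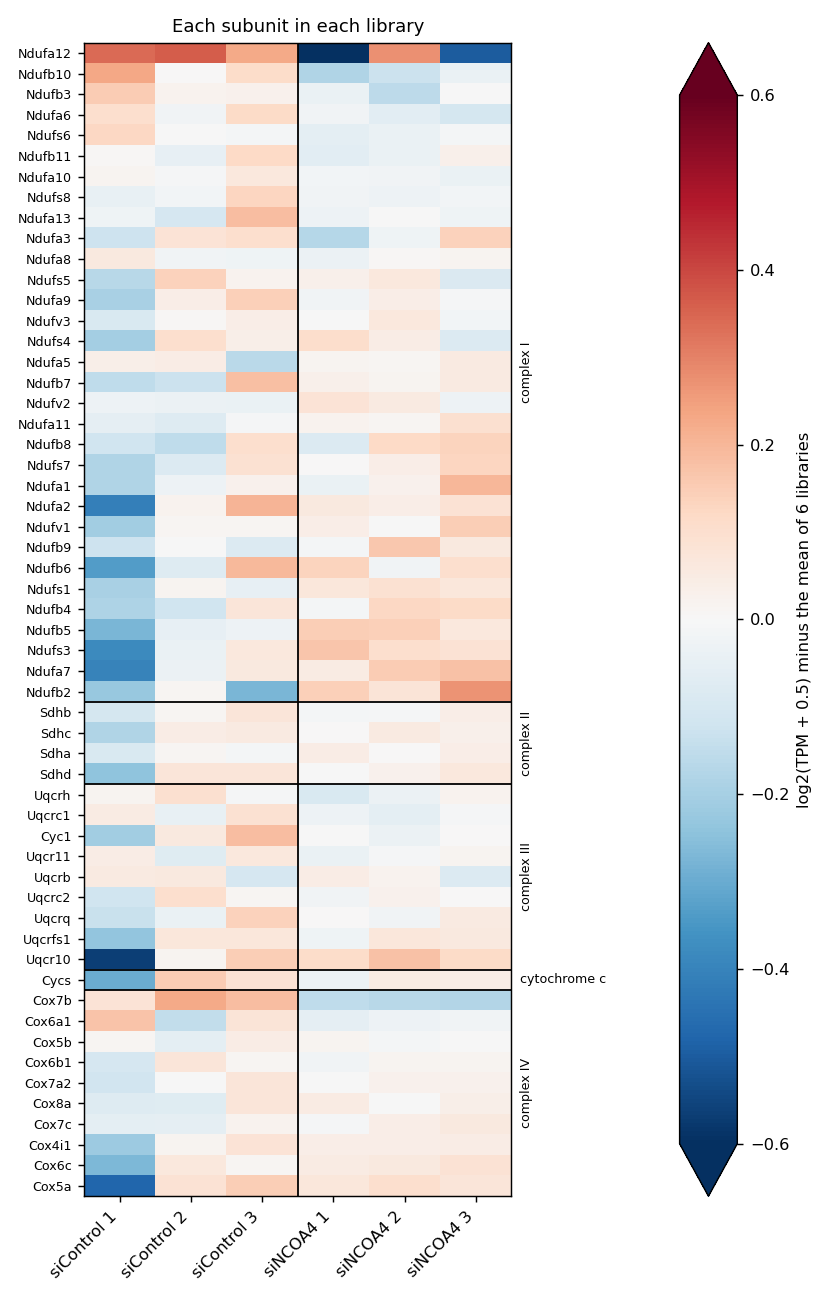
Log2(TPM + 0.5) of each member in each library minus its mean over the 6 libraries (colour, blue below and red above), with members ordered by complex and fold change. Control replicate 1 is the lowest library for 34 of the 56 members, Cox7b is lower in all NCOA4 siRNA libraries, and the NCOA4 siRNA columns are paler than the controls for most rows.

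The level of the members was high in both groups. The median member stood at 176.6 TPM over all libraries, against 16.9 TPM for all genes tested, and 55 of 56 lay above that value. By complex the median level was 115 TPM for complex I, 209.5 TPM for complex II, 286 TPM for complex III and 435 TPM for complex IV. Within complex I it ran from Ndufb2 at 2.73 TPM to Ndufa8 at 419.7 TPM, within complex II from Sdhc at 130.1 TPM to Sdhd at 425 TPM, within complex III from Uqcrfs1 at 172 TPM to Uqcr11 at 391 TPM, and within complex IV from Cox5a at 127 TPM to Cox4i1 at 1102 TPM. These levels divide reads by the joined exons of each gene, so that the order of genes depends on the length used. For 20 members the joined exons exceeded, more than 2-fold, the transcript with the longest coding sequence (the shortest where several tie). Copies at other positions matched 14 members, and besides Ndufa12 they held the largest shares of reads for Uqcr11 (11.8%), Cox5b (9.37%) and Ndufs3 (8.92%).

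Calls among genes that work beside the complexes are given here by list. Of all 13829 genes, 5.42% were called, 3.11% higher and 2.31% lower. None of the 16 ATP synthase genes passed the test (median log2 fold change 0.08), nor did any of the 5 tested complex I and IV subunits outside the set (median 0.22) or any of the 12 tested regulators of mitochondrial genes, such as Nrf1, Gabpa and Tfam (median -0.02). Of 46 assembly factors tested, 2 rose, Foxred1 from 22.9 ± 1.26 to 28.8 ± 0.928 TPM and Coa3 from 110.4 ± 3.05 to 129.0 ± 3.08 TPM (SD, n = 3 each). Foxred1 assists assembly of complex I and Coa3 that of complex IV, and their log2 fold changes were 0.33 and 0.22 (adjusted p = 0.0251 and 0.0255 from limma). Of 17 genes of the citric acid cycle and pyruvate dehydrogenase, 1 rose and 1 fell, both subunits of the same E1 enzyme of pyruvate dehydrogenase. Pdha1 was at 71.6, 76.4 and 72.0 TPM in controls and at 87.5, 82.4 and 85.7 TPM after NCOA4 siRNA, and Pdhb was at 120.0, 129 and 126 TPM in controls and at 102, 101 and 100.3 TPM. Neither gene's groups overlapped, and the log2 fold changes were 0.22 and -0.30 (adjusted p = 0.0432 and 0.0108 from limma). Of 13 genes of coenzyme Q synthesis, Coq8a rose from 1.54 ± 0.175 to 2.88 ± 0.129 TPM (log2 fold change 0.73, adjusted p = 0.0312).

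Calls in these lists depended on single libraries and on the processing. Without NCOA4 siRNA replicate 1, 2 or 3, the genes called over the whole table numbered 156, 127 and 182 in place of 750, and Foxred1, Coa3, Pdha1, Pdhb and Coq8a each lost the call, with the highest adjusted p for each between 0.071 and 0.168. Control libraries mattered as well: Pdha1 lost the call without control replicate 1 or 3 (adjusted p = 0.0643 and 0.110), Coq8a without control replicate 2 or 3 (0.0632 and 0.0769), and Foxred1 and Coa3 without control replicate 3 (0.0762 and 0.0731). Of the 13 protein genes of the mitochondrial genome, whose products serve in complexes I, III and IV and in ATP synthase, 1 was called, mt-Co3, at 42.4, 39.4 and 43.3 TPM in controls and 253, 217 and 96.6 TPM after NCOA4 siRNA (adjusted p = 0.0203). With control replicate 2, control replicate 3, NCOA4 siRNA replicate 1 or NCOA4 siRNA replicate 2 left out, this p became 0.0621, 0.0628, 0.0798 and 0.0955, respectively. The median over these 13 genes was 0.00, with 7 above 0 and 6 below, the lowest at -0.26. Their levels differed widely: in controls mt-Co1 was at 34781, 30511 and 28962 TPM and mt-Co2 at 129, 116 and 111 TPM. After NCOA4 siRNA mt-Co2 was at 253, 203 and 145 TPM (log2 fold change 0.72, limma adjusted p = 0.0815). For mt-Atp6 the values were 100.5, 146 and 99.4 TPM in controls and 295, 238 and 142 TPM after NCOA4 siRNA (0.92, limma adjusted p = 0.120). Copies of the 13 genes elsewhere in the genome were not searched for. Why mt-Co3 stood far below mt-Co1, and which copy its reads came from, was not tested. Processing choices ended calls too: eBayes without a variance trend gave adjusted p = 0.0560 for Foxred1 and mt-Co3, 0.0765 for Coa3 and 0.0999 for Pdha1, and without a filter on low values Pdha1 had 0.0573 and Coq8a 0.0690. Pdha1 also had 0.0572 after median centring, and Coa3 had 0.0618 with the length trend removed and 0.0570 with limma-voom and TMM factors. Pdhb kept its call under these choices. Of 4 tested paralogous isoforms of the subunits, such as Cox4i2, none was called. Among 77 mitochondrial ribosomal protein genes 3 fell and 0 rose (median 0.00), where 2.31% of all genes fell. The groups separated upward in 5 of them and downward in 14. Among 78 cytosolic ones 2 rose and 0 fell (median 0.14), where 3.11% of all genes rose. Of these 78, 73 lay above 0, and the groups separated upward in 41 and downward in 0. Over all genes these separations made 16.6% upward and 11.8% downward.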

How the data were processed

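RNA-seq was made from J774 cells given control siRNA or NCOA4 siRNA, with 3 biological replicates each. The authors deposited TPM per Ensembl gene for each library, without scaling between libraries. The submitters' processing notes name Trimmomatic 0.33, FastQC, HISAT2 2.1.0, featureCounts, edgeR and mm10, with no roles given. The members, lists and tests were chosen with earlier results of these data known.

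Of 55487 identifiers, 55227 were named from GENCODE M21 (GRCm38). TPM multiplied by joined exon length gave whole reads, within 0.02 reads in all 6 libraries, for 20781 of 21096 genes above 0 (98.5%), and these reads served for depth and for limma-voom. The main test was limma 3.58.1 (R 4.3.3) on log2(TPM + 0.5) for the 13829 genes whose mean TPM reached 0.5, with a variance trend, no block and Benjamini-Hochberg adjustment. The authors tested counts with edgeR, but the deposited values are TPM, so it was not used. Fold changes on this scale understate changes of low genes. The script was tested on simulated data. Copies were found with blastn 2.17.0 (at least 95% identity over 80% of the coding sequence), and promoters came from RefSeq.

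Values are given for subunits with iron or flavin, members past the test, the highest and lowest member of each complex, called genes of other lists (up to 4 per list) and Ncoa4. Other names were chosen after their values were seen. Alternatives covered pseudocounts, filters, scaling, the variance trend, limma-voom (with TMM factors computed from their definition, or library totals), a replicate block, length and GC trends, added copies, and each library left out. The counts of separated groups without a library were added after seeing the data. Reads of overlapping or antisense genes were not separated here. The labels name separate biological replicates, but not separate days or passages.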

Additional observations from a re-analysis of the deposited data

How the results depend on the processing

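The call of Cox7b held under both other pseudocounts, both other filters, median centring, quantile normalization, removal of the mitochondrial genes, eBayes without a trend, limma-voom, both trend corrections and added copies, and its log2 fold change stayed between -0.39 and -0.30. Limma-voom called 3 members with TMM factors, Cox7b, Ndufa12 and Ndufb10 lower, and 3 with library totals, a scaling chosen after seeing the data, Cox7b and Ndufa12 lower and Ndufb5 higher. With the replicate number as a block, 0 members were called (Cox7b adjusted p = 0.0637) and 161 genes in all, against 750 without it, and Foxred1, Coa3, Pdha1, Pdhb, Coq8a and mt-Co3 lost their calls (adjusted p = 0.0532 to 0.144). The correlations computed for same-numbered libraries, which are not those of expression level itself, were 0.0283, -0.0185 and 0.0229. The numbers were not taken to pair the samples, though with 3 libraries per group these values cannot exclude a pairing. Leaving out single libraries gave 0 to 1 called members, Ndufa12 in place of Cox7b without NCOA4 siRNA replicate 2, and 127 to 807 called genes. Genes called in all were 1425 and 1474 with limma-voom (TMM factors and library totals), 499 without a filter and 404 without a trend. The median over the members was 0.015 with limma-voom and TMM factors, -0.014 after median centring, -0.0066 with the length trend removed and -0.0075 with the GC trend removed, and ran from -0.013 (without control replicate 1) to 0.076 (without control replicate 3) with libraries left out. Subunits near 0 changed sign: Sdhb to -0.043, Sdhc to -0.0022 and Cycs to -0.017 after median centring, Cyc1 to 0.0018 after quantile normalization, Sdhb to -0.012 with limma-voom and TMM factors, Sdhb to -0.025 with the length trend removed, and Sdhb to -0.026 and Cycs to -0.017 with the GC trend removed. With libraries left out the ranges were -0.034 to 0.055 for Sdhb, -0.022 to 0.096 for Sdhc, -0.044 to 0.113 for Sdhd, -0.033 to 0.121 for Uqcrfs1, -0.099 to 0.127 for Cycs, -0.037 to 0.274 for Cox5a, -0.133 to 0.064 for Cyc1 and -0.078 to 0.0090 for Ndufs8. Ncoa4 kept its call in all of these alternatives, at -1.28 to -1.17. The cause of these shifts was not tested. The precision of 3 libraries per group, a median SE of 0.0696 on the log2 scale for the members, limits how small a change can be resolved.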
